A study of Homo sapiens with 9 samples.

Results

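The loci of 29 genes of the mesenchymal cell state of neuroblastoma were examined for open chromatin in the neuroblastoma line SK-N-BE(2)c, human cells of adrenergic, that is noradrenergic neuron-like, character. The assay was ATAC-seq: the transposase Tn5 cuts accessible DNA and leaves sequencing adapters there. The cells had been transfected for 48 h with 100 nM of an antisense oligonucleotide (ASO), either ASO2 or ASO10, which target the long non-coding RNA NESPR, or the negative control oligonucleotide NCA. Each of the 3 groups had 3 libraries, all groups carried an oligonucleotide and the lipid transfection reagent, and the level of NESPR was not analysed here. Of the 148797 regions counted in all libraries, 372 belonged to the 29 genes. A gene-end region had its centre within 1 kb of either end of a gene in RefSeq's GRCh38.p14 annotation (26 regions, 25 tested). A nearby region lay elsewhere in the gene or within 50 kb of it (346 regions, 277 tested). The members were chosen by name from knowledge of the mesenchymal state, with earlier results of these data known.

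Neuroblastoma cells can take an adrenergic state, held by factors such as HAND2 and GATA3, or a mesenchymal state that resembles neural crest and stromal cells. The mesenchymal state is associated with the factors PRRX1, TBX18, MEOX1, MEOX2, SIX4, SOX9 and GLIS3, with Notch, TGF-beta and Hippo signalling, and with genes of epithelial-mesenchymal transition such as SNAI2, TWIST1 and ZEB1. Cells can switch between these states, and the mesenchymal state is known for migration and drug tolerance.

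Total counts ranged from 7293565 to 10948569 per library, and levels are given as CPM, counts divided by TMM-scaled library size. The biological coefficient of variation was 23.5%. The labels do not say whether replicates were separate cultures, so p-values measure only the spread between these libraries, which may be technical. For the median region, edgeR took this spread from all regions together and not from that region's own libraries. A called region can therefore have a wide scatter of its own. As a check of the labelled cell line, 15 of 18 adrenergic marker genes (83.3%) had an open gene end in NCA, HAND2, GATA3 and DBH among them. By the same rule, given below, 65.7% of all protein-coding genes were open, so an open gene end says little about cell type. TH, KLF7 and EYA1 had no gene-end region. Markers of other cell types were open at a gene end in 3 of 6 fibroblast, 2 of 5 Schwann cell and 2 of 4 blood cell genes. The open ones were COL1A2, LUM and PDGFRB, S100B and ERBB3, and CD14 and SPI1, while COL1A1, COL3A1, DCN, SOX10, PTPRC and CD3E had no gene-end region. The summed level over the fibroblast gene ends was 18.8 to 24.3 CPM for NCA, 21.5 to 22.9 for ASO2 and 21.5 to 22.8 for ASO10. That over the Schwann cell gene ends was 17.0 to 25.0, 15.7 to 21.1 and 19.0 to 22.5 CPM in the same order, and over the blood cell gene ends 9.92 to 15.3, 9.87 to 13.8 and 10.0 to 10.7 CPM. The groups overlapped in all 3 sums. In bulk libraries, fewer open cells and less open chromatin per cell cannot be told apart.

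Mesenchymal loci were open at a gene end in the control cells about as often as protein-coding genes as a whole. A gene was called open in NCA when a gene-end region held at least 10 counts in each of the 3 NCA libraries, and 20 of the 29 members (69%) met this. The same rule held for 65.7% of all 20037 protein-coding genes and for 83.3% of the adrenergic genes. Of the 26 gene-end regions, 16 lay at the gene start, none (0) at the gene stop, and 10 belonged to members for which the promoter table gives no strand. Open gene-end regions had a median width of 1350.5 bases and a median level of 11.4 CPM per kb in NCA. The 21 members with a gene-end region were set against the strongest such region of the 14072 protein-coding genes that have one. Genes with none were left out. The members had a median percentile of 39.8, from 0.831 for MEOX2 to 84.8 for ELK4, and 7 of them reached the median of these genes.

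The promoters of 5 members show the range from open to closed. Each is the 250 bases before the RefSeq gene start (GRCh38.p14, 5′ to 3′ on the gene's strand, here the plus strand in every case). Capitals mark matches to the searched motifs on either strand, which in these stretches were GGGCGG (the GC box of SP factors), GGAATG (TEAD factors) and CAGGTG (the E-box of ZEB and SNAI factors). ID1 (chr20:31605039-31605288) and YAP1 (chr11:102110197-102110446) lay wholly under a region. VIM (chr10:17227991-17228240) and ZEB1 (chr10:31318167-31318416) lay partly under one, and CD44 (chr11:35138921-35139170) under none.
ID1: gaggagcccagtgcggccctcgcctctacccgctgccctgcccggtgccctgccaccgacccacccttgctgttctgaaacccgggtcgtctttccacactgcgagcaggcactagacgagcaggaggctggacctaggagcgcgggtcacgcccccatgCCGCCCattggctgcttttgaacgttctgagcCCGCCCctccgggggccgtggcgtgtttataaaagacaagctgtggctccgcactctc
YAP1: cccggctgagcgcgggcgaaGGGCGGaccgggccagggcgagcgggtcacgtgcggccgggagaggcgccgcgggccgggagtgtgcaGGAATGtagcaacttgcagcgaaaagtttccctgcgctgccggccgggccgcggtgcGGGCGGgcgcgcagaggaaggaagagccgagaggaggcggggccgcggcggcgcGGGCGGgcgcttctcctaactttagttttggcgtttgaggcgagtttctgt
VIM: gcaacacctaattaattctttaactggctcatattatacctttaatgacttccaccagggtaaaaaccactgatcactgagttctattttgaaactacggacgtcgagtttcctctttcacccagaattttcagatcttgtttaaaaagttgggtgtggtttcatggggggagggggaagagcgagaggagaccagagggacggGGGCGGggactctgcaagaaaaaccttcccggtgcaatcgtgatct
ZEB1: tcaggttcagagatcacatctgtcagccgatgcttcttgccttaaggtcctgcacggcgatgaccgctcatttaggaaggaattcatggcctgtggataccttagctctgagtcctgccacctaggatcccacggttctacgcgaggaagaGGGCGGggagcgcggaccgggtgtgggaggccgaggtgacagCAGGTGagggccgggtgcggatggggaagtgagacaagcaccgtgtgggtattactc
CD44: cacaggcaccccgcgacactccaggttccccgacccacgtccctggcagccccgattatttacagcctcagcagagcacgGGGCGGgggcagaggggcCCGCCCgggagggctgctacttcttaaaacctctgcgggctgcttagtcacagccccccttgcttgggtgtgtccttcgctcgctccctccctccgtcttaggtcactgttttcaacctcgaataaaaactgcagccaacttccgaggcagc
GC content was 72% in the YAP1 stretch, 66.0% in ID1, 62.4% in CD44, 59.2% in ZEB1 and 46.0% in VIM. CD44, under no region, thus lay below ID1 and YAP1, wholly under one, and above ZEB1 and VIM, partly under one.

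RefSeq promoters, taken as 250 bases before to 50 after a start, were matched for 20 members. IRF2, IRF3, TWIST1, AEBP1, EGR3, SNAI2, FLI1, MEOX1 and SOX9 had no entry. The GC box was found in 13 of the 20, against 58.5% of 15843 promoters of protein-coding genes. GGAATG was found in 4 (11.7% of all), CAGGTG in 1 (19.9%), the ETS motif CCGGAAG in 1 (14.2%), a motif of interferon regulatory factors in 1 (3.17%) and the SOX motifs AACAATG or ACAAAG in 2 (14.7%). The AP-1 motif TGANTCA was in none of the 20 windows (5.75% of all). The ratio of observed to expected CpG in these windows was compared by openness at the gene end. Its median was 0.796 in the 15 matched members with an open region overlapping a gene end or the 1 kb beside it. In the other 5 it was 0.599. The split does not follow the windows themselves. Those of IFI16 (0.0769) and GLIS3 (0.938), among the 15, lay under no region. That of NR3C1 (0.84), among the other 5, lay wholly under one. The medians therefore do not compare open with closed promoters.

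**Figure D1:**
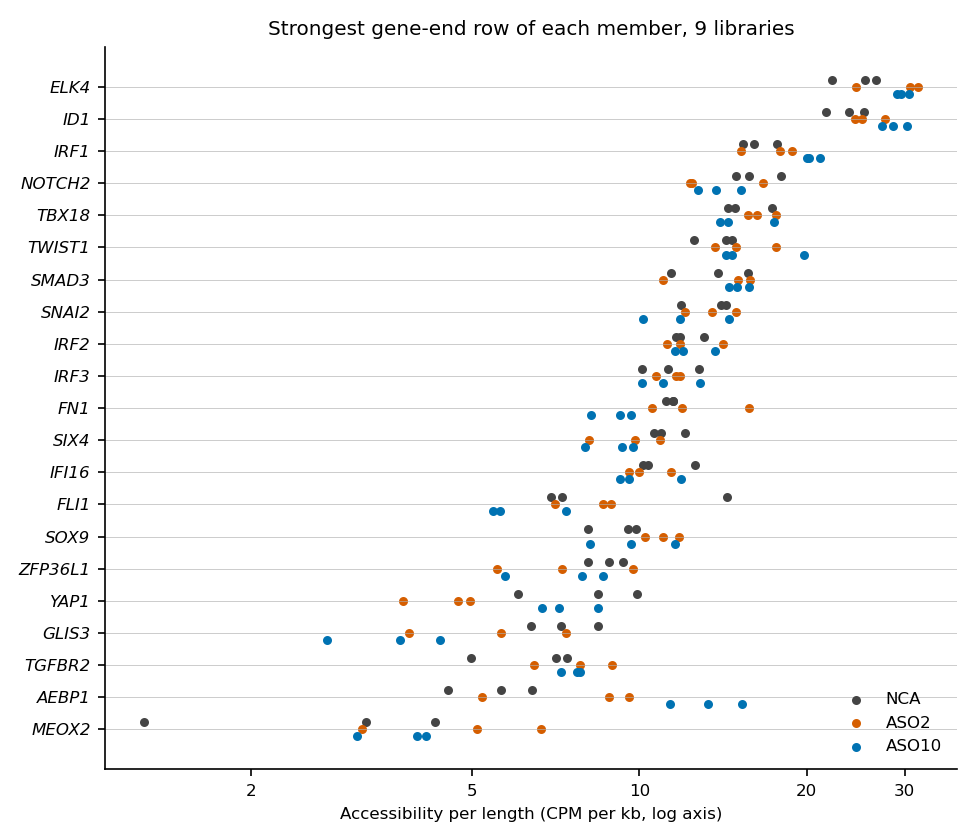
Accessibility of the strongest gene-end region (row of the count table) of the 21 members that have one, in CPM per kb on a log axis. Each point is 1 of 9 libraries, coloured by oligonucleotide. ELK4 and ID1 stand highest and MEOX2 lowest, and the 3 groups overlap for most members.

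Among receptors and signalling effectors, all 4 members were open. NOTCH2, a Notch receptor, had 16.1 ± 1.58 CPM in NCA at its start (mean ± SD, n = 3 in this and the following values), a value that is uncertain because the NOTCH2NL genes are near-identical copies of this part of NOTCH2. TGFBR2, the ligand-binding TGF-beta receptor, had 7.56 ± 1.53 CPM in a region that also lies within 1 kb of the end of LOC105377015. SMAD3, which carries TGF-beta signals to the nucleus, had 19.4 ± 3.04 CPM. ID1, an inhibitor of basic helix-loop-helix factors induced by BMP signals, had the highest gene-end level in CPM of all members, 47.3 ± 3.72 CPM. Per length, ID1 stood at 23.6 CPM per kb and TGFBR2 at 6.49 CPM per kb.

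The co-activators of the Hippo pathway differed in NCA. YAP1 was open at its start, with 10.9 ± 2.61 CPM. WWTR1, which encodes TAZ, the partner of YAP1, had no gene-end region. Its nearest region was 4.48 kb from an end (7.62 ± 2.89 CPM), and 11 of its 28 nearby regions were open. The strongest inside the gene had 13.2 ± 1.32 CPM. A stronger one outside (17.1 CPM) lies at an end of COMMD2, and the genes cannot be told apart there.

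The 3 factors of epithelial-mesenchymal transition were all accessible at the gene. SNAI2 (28.2 ± 2.80 CPM) and TWIST1 (27.9 ± 2.35 CPM) met the rule. ZEB1 had a region of 2768 bases over its start whose centre lay 1.34 kb away, so it counted as nearby, with 19.7 ± 2.69 CPM. The same held for VIM, the mesenchymal intermediate filament vimentin (centre at 1.24 kb, 25.5 ± 2.77 CPM), and for EGR3, an early-response zinc finger factor (1.16 kb, 31.9 ± 2.95 CPM). Counting regions that overlap a gene end or the 1 kb beside it, a rule added after the data were seen, 23 of 29 members were open. Just inside the 1 kb limit, the second FLI1 region, at 988 bases, had 0.576 ± 0.106 CPM (not tested, too few counts) and the second YAP1 region, at 930.5 bases, 0.894 ± 0.5 CPM.

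Of the 7 developmental factors, 4 were open. TBX18 had 22 ± 2.19 CPM, SIX4 had 15.8 ± 1.09 CPM and SOX9 had 14.6 ± 1.52 CPM at the stronger of its regions. GLIS3 had 2.09 ± 0.291 CPM in a region that lies between it and SLC1A1, 378.5 bases from the former and 375.5 from the latter, so the genes cannot be told apart there. The RefSeq promoter entry of GLIS3 (chr9:4298447-4298746) lay elsewhere and under no region. PRRX1, a homeobox factor able to drive the mesenchymal state, had no gene-end region. Its nearest region, 1.84 kb from an end, had 0.644 ± 0.346 CPM, and the strongest inside the gene had 1.40 ± 0.825 CPM. MEOX1 also had none, and MEOX2 had a region of 1.29 ± 0.671 CPM that missed the rule.

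Among the interferon-related members, IRF2 had 35.4 ± 2.29 CPM, IFI16 23 ± 2.82 CPM, IRF3 21.0 ± 2.52 CPM and IRF1 20.4 ± 1.5 CPM, so all 4 were open. The regions of IFI16 and IRF3 also lie within 1 kb of an end of PYDC5 and BCL2L12. The RefSeq promoter entry of IFI16 (chr1:159008741-159009040) lay elsewhere and under no region. ELK4, an ETS factor, had 33.6 ± 3.15 CPM, and per length it was the most accessible member (24.8 CPM per kb). The RNA-binding protein gene ZFP36L1 had 6.75 ± 0.489 CPM, the ETS factor gene FLI1 2.65 ± 1.17 CPM and AEBP1, a transcriptional repressor of adipocyte genes, 2.22 ± 0.383 CPM. Inside FLI1, 30.6 kb from an end, a region had 23.9 ± 3.89 CPM, or 20.3 CPM per kb against 9.52 CPM per kb at the gene end.

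NR3C1, the glucocorticoid receptor, had no region at the ends of its annotated span. A region of 2441 bases lay 31.0 kb inside, over the whole of its RefSeq promoter entry, with 20 ± 0.93 CPM, and 0.174 kb from an end of LOC128966704. FN1, fibronectin, was open with 10.1 ± 0.169 CPM. CD44, a hyaluronan receptor used as a mesenchymal surface marker, had no gene-end region, and its strongest nearby region had 2.43 ± 0.530 CPM at 8.68 kb from an end. PRRX1, MEOX1, MEOX2, WWTR1 and CD44 were thus the 5 members with no open region at a gene end by either rule or at their RefSeq promoter, where the table has one.

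The first comparison asked whether the gene ends of mesenchymal loci changed when NESPR was targeted. Under ASO2, 1 of 25 tested gene-end regions was lower than NCA and 0 were higher (edgeR quasi-likelihood test, adjusted p under 0.05 over all 119417 tested regions), where 5.6% of all tested regions were called (4.79% higher and 0.808% lower) and 1.54% of the gene-end regions of all protein-coding genes (0.569% higher and 0.968% lower). Under ASO10, 1 was higher and 0 lower, against 1.09% of all tested regions (0.876% higher and 0.21% lower) and 2.14% of all gene-end regions (2.03% higher and 0.118% lower). For the average of both ASOs, 0 of 25 were called by edgeR and 4 had an unadjusted p under 0.05. DESeq2 and limma-voom also called 0, and 2.99% of all tested regions were called (2.4% higher and 0.594% lower), with 1.4% of all gene-end regions (0.961% and 0.436%). For this average, an unadjusted p under 0.05 was met by 14% of all tested regions and by 1660 of the 13530 tested gene-end regions of all protein-coding genes. Between ASO2 and ASO10, 1 region was called, lower under ASO2, against 3.23% of all tested regions (2.54% higher and 0.682% lower) and 3.31% of all gene-end regions (0.37% and 2.94%). At most 1 call in 25 is too few to read against these shares. The comparisons with NCA share the same NCA libraries.

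YAP1, the transcriptional co-activator restrained by Hippo signalling, was the member that fell under ASO2. Its gene-start region (chr11:102109875-102111218), which covers the promoter printed above, had 8.12, 11.3 and 13.3 CPM in the NCA libraries, 5.05, 6.65 and 6.33 CPM under ASO2, and 9.62, 11.3 and 8.99 CPM under ASO10. All ASO2 libraries were below all NCA and all ASO10 libraries, while ASO10 and NCA overlapped. The log2 fold change under ASO2 was -0.85 ± 0.21 (SE), or 0.554 of the NCA level, with an edgeR adjusted p of 0.00295. Without NCA replicate 3 the adjusted p was 0.0992. Under ASO10 it was -0.13 ± 0.20 (edgeR adjusted p = 0.872), and between ASO2 and ASO10 the log2 fold change was -0.72 ± 0.22 (edgeR adjusted p = 0.0333). The latter was not called with DESeq2, with limma-voom or when any 1 of the 6 ASO libraries was left out (adjusted p up to 0.219).

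AEBP1 was the member that rose under ASO10. The region (chr7:44104690-44105092), at the lower-coordinate end of the gene, had 2.58, 2.27 and 1.82 CPM in NCA, 2.1, 3.54 and 3.85 CPM under ASO2, and 4.57, 6.14 and 5.34 CPM under ASO10. The ASO10 libraries were all above NCA, and the ASO2 libraries overlapped with NCA. The counts were low, 16 to 20 in NCA and 39 to 54 under ASO10. The log2 fold change under ASO10 was 1.27 ± 0.36 (SE; edgeR adjusted p = 0.0404). DESeq2 gave it no adjusted p. It was called in 7 of 17 other alternatives and lost whenever any NCA or ASO10 library was left out (adjusted p up to 0.219), and a difference between ASO2 and ASO10 was not shown (edgeR adjusted p = 0.269).

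**Figure D2:**
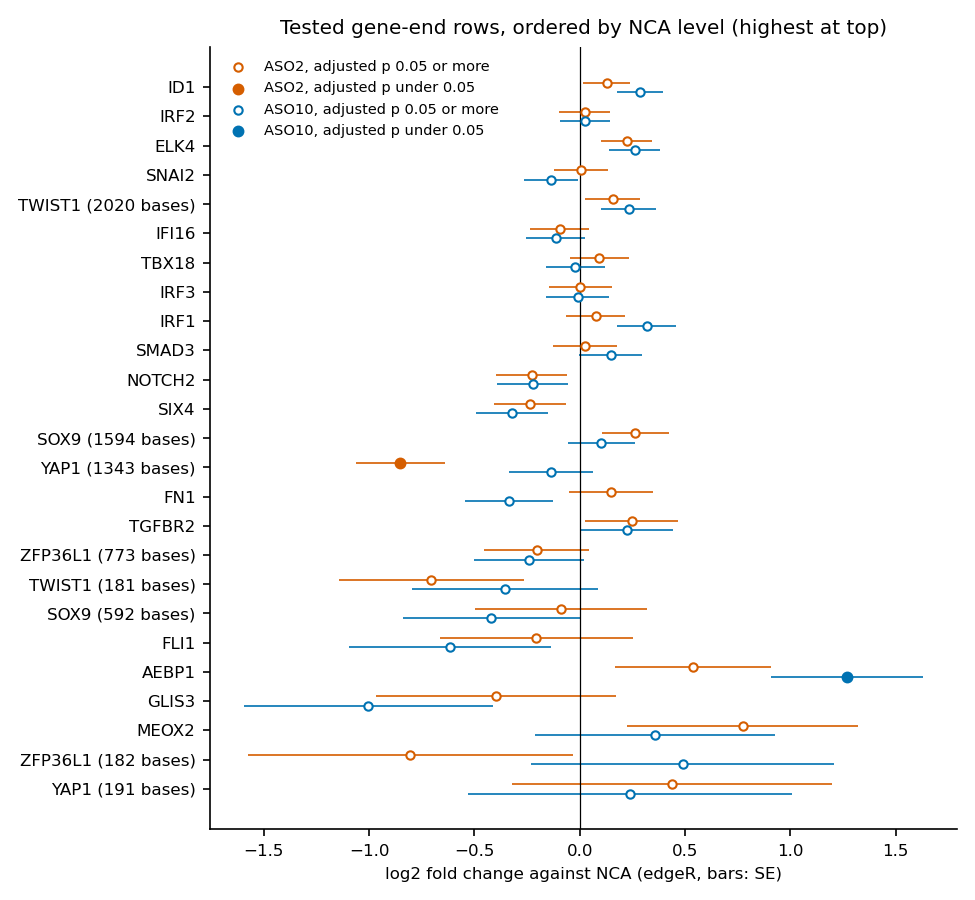
log2 fold change against NCA (x axis, edgeR, bars are SE) of the 25 tested gene-end regions, ordered from the highest NCA level at the top, with widths where a gene has more than 1 tested region. Filled points mark the called regions, YAP1 under ASO2 and AEBP1 under ASO10, and all others are open points.

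The other gene ends did not pass the test. In 20 of 25 regions under ASO2 and 22 of 25 under ASO10 the absolute log2 fold change was under 0.5. ID1 had 50.8, 43.4 and 47.8 CPM in NCA, 50.5, 55.5 and 49.0 CPM under ASO2, and 57.4, 54.8 and 60.8 CPM under ASO10. The ASO10 libraries of ID1 were above all NCA libraries, by 0.28 ± 0.11 on the log2 scale, which did not pass the test (edgeR adjusted p = 0.269). ELK4 had 36.2, 30.1 and 34.6 CPM in NCA, 41.7, 43.1 and 33.3 CPM under ASO2 and 39.5, 40.1 and 41.4 CPM under ASO10 (log2 fold change for both ASOs 0.24 ± 0.11, edgeR adjusted p = 0.257). IRF1 had 19.1, 20 and 22 CPM in NCA and 24.9, 26.3 and 25.1 CPM under ASO10 (0.32 ± 0.14, edgeR adjusted p = 0.373). FN1 had the smallest p between the ASOs among the uncalled members, with 14.0, 10.6 and 9.36 CPM under ASO2 and 8.21, 7.28 and 8.59 CPM under ASO10 (0.48 ± 0.20, edgeR adjusted p = 0.200). SOX9 was next after ELK4 by p under ASO2, with 15.7, 12.9 and 15.2 CPM in NCA, 18.8, 16.3 and 17.6 CPM under ASO2 and 18.5, 15.4 and 13.0 CPM under ASO10 (under ASO2 0.26 ± 0.16, edgeR adjusted p = 0.424). Under ASO10 the libraries of 7 of 25 regions did not overlap with NCA, with ELK4, IRF1, ID1 and AEBP1 above and FN1, SIX4 and GLIS3 below, against 15.7% of all tested regions (8.51% above and 7.15% below). Under ASO2 it was 2 of 25, SOX9 above and YAP1 below, against 20.5% (11.9% and 8.57%).

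**Figure D3:**
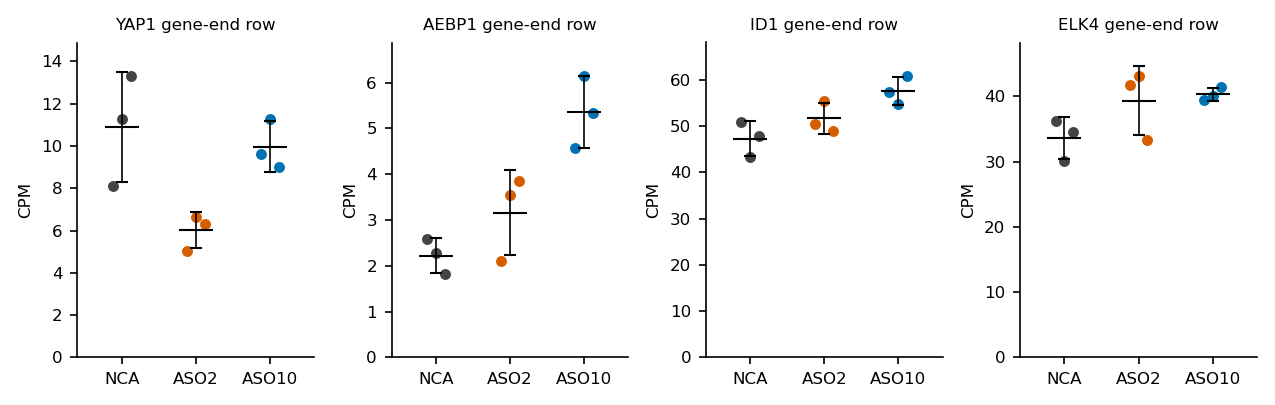
Level (CPM) of the gene-end regions of YAP1, AEBP1, ID1 and ELK4 in each library (points), with the mean and SD of 3 libraries as a dash and bar, y axes from 0. YAP1 is low in all 3 ASO2 libraries and AEBP1 high in all 3 ASO10 libraries, while the ID1 and ELK4 groups differ by less than the test requires.

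The accessible starts that lay just beyond the 1 kb limit also did not pass the test. VIM had 23.6, 24.3 and 28.7 CPM in NCA, 24.8, 26.6 and 23.7 CPM under ASO2, and 26.7, 24.6 and 30.0 CPM under ASO10, and the 3 groups overlapped. Its log2 fold changes were -0.03 ± 0.14 and 0.08 ± 0.14 (edgeR adjusted p = 0.945 and 0.888). ZEB1 had 0.24 ± 0.14 under ASO2 and 0.31 ± 0.14 under ASO10 at its start (edgeR adjusted p = 0.405 and 0.387). EGR3 had -0.09 ± 0.13 and -0.07 ± 0.13, and the internal NR3C1 promoter region -0.06 ± 0.15 and -0.01 ± 0.15.

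Of the 277 tested nearby regions, 19 were called in at least 1 comparison, and they belonged to 12 members. The share of all tested regions called in at least 1 comparison was not counted. These totals therefore have no background, and only the shares per comparison can be set side by side. Under ASO2, 6 were higher and 3 lower (3.25% of those tested, against 5.6% of all tested regions). Under ASO10, 3 were higher and 1 lower (1.44%, against 1.09%). The average of both ASOs gave 6 higher and 3 lower (3.25%, against 2.99%), and the comparison of ASO2 with ASO10 gave 6 higher and 1 lower (2.53%, against 3.23%). In NCA, 168 of the 346 nearby regions were open (48.6%, against 54.2% of all regions).

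Regions inside ZEB1, a repressor of epithelial genes, rose under ASO2. The region chr10:31412986-31413946, 95.0 kb downstream of the gene start, had 2.71, 2.02 and 3.18 CPM in NCA, 6.31, 8.69 and 8.07 CPM under ASO2, and 5.04, 2.73 and 4.30 CPM under ASO10. The ASO2 libraries were above all others. The log2 fold change under ASO2 was 1.54 ± 0.30 (SE; edgeR adjusted p = 3.53e-05), and this call held in all 18 alternatives. Under ASO10 it was 0.60 ± 0.32 (edgeR adjusted p = 0.506), for the average 1.07 ± 0.28 (edgeR adjusted p = 0.00838; 0.121 without NCA replicate 2), and between the ASOs 0.94 ± 0.29 (edgeR adjusted p = 0.0348), a call kept in 12 of 18 alternatives and lost when ASO2 replicate 2 or 3 or ASO10 replicate 2 or 3 was left out (adjusted p up to 0.290). A second region, chr10:31373755-31374525, had 4.25, 5.80 and 3.86 CPM in NCA, 8.70, 10.2 and 8.81 CPM under ASO2 and 7.62, 6.37 and 4.56 CPM under ASO10 (under ASO2 1.00 ± 0.25, edgeR adjusted p = 0.00231). It also held in all 18 alternatives under ASO2. Another, chr10:31484186-31485327, differed only in the comparison of ASO2 with ASO10 (0.73 ± 0.21, edgeR adjusted p = 0.0270, 11 of 18 alternatives, lost without any ASO2 library or without ASO10 replicate 1 or 3, up to 0.220), with ASO2 at 11.2 ± 0.67 CPM, ASO10 at 6.74 ± 1.37 CPM and NCA at 8.35 ± 2.65 CPM.

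A pair of regions upstream of SIX4, a homeobox factor of muscle and sensory development, rose under ASO2. Both were closer to another gene, MNAT1, which has an end between them and SIX4. For other genes only the distance to an end was measured, so whether the regions lie inside MNAT1 was not examined. The region chr14:60757535-60758409, 33.6 kb from SIX4 and 23.2 kb from an end of MNAT1, had 6.06, 5.04 and 4.43 CPM in NCA, 8.14, 13.8 and 11.7 CPM under ASO2, and 6.69, 9.56 and 8.99 CPM under ASO10. All ASO libraries were above NCA (under ASO2 1.14 ± 0.22, edgeR adjusted p = 4.53e-05, and for both ASOs 0.92 ± 0.20, edgeR adjusted p = 0.000924). The region chr14:60763596-60764394 lay 39.6 kb from SIX4 and 29.2 kb from an end of MNAT1. It had 5.28, 6.18 and 4.54 CPM in NCA, 11.4, 14.8 and 9.08 CPM under ASO2, and 3.64, 4.32 and 4.30 CPM under ASO10. Here ASO2 was above and ASO10 below all NCA libraries. The log2 fold change was 1.14 ± 0.23 under ASO2 (edgeR adjusted p = 0.00011), -0.38 ± 0.26 under ASO10 (edgeR adjusted p = 0.652) and 1.52 ± 0.24 between them (edgeR adjusted p = 3.8e-07). Its calls under ASO2 and between the ASOs held in all 18 alternatives. The SIX4 gene start itself had -0.24 ± 0.17 and -0.32 ± 0.17 under ASO2 and ASO10 (edgeR adjusted p = 0.515 and 0.497).

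WWTR1 carried the nearby region that rose under each ASO. The region chr3:149575600-149576617, inside the gene and 58.9 kb from an end, had 14.3, 11.7 and 13.5 CPM in NCA, 20.2, 16.6 and 21.7 CPM under ASO2 and 23.9, 19.1 and 17.2 CPM under ASO10. All 6 ASO libraries were above NCA. The log2 fold change was 0.57 ± 0.16 under ASO2 and 0.61 ± 0.16 under ASO10 (edgeR adjusted p = 0.0101 and 0.0207), and the average was 0.59 ± 0.14 (edgeR adjusted p = 0.00277). The average was lost only without NCA replicate 2 among 17 alternatives (adjusted p = 0.0710). The ASO2 call was lost without NCA replicate 2 or ASO2 replicate 1 or 3 (adjusted p up to 0.106), and the ASO10 call without any 1 NCA library or ASO10 replicate 1 (up to 0.353). Another WWTR1 region, chr3:149714137-149714478, fell under ASO2 from 3.10 ± 0.927 to 0.921 ± 0.401 CPM (-1.77 ± 0.53, edgeR adjusted p = 0.0219), a call lost without NCA replicate 1 or 3 or ASO2 replicate 3 (adjusted p up to 0.170).

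**Figure D4:**
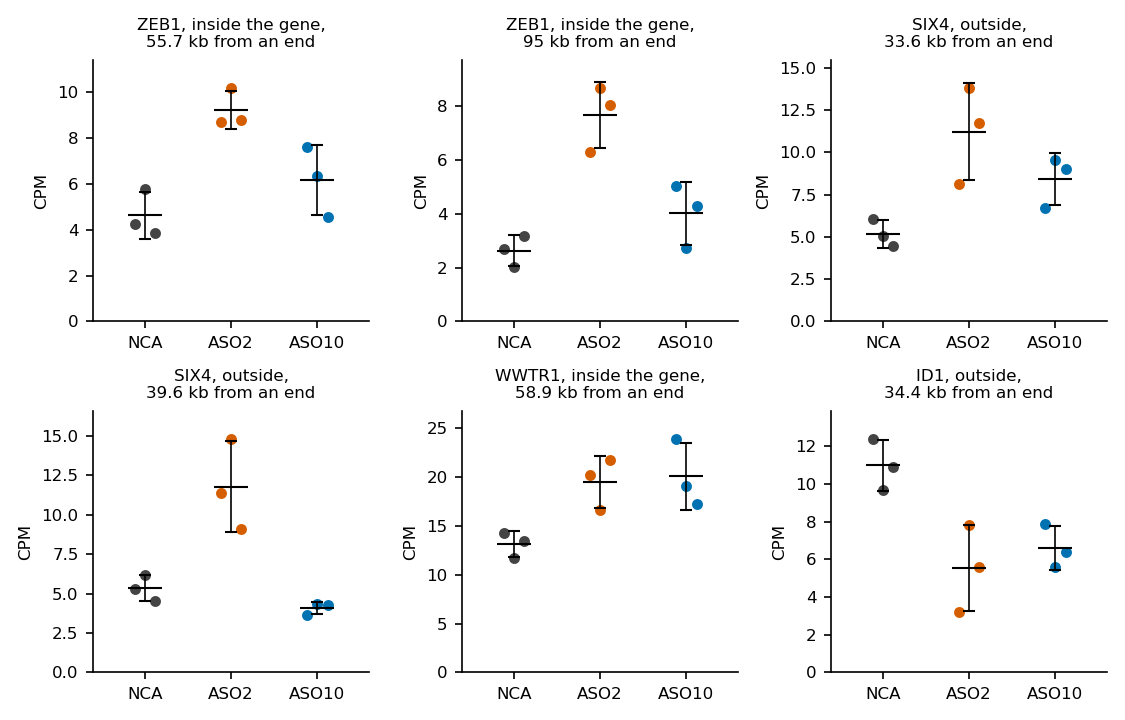
CPM, in each library, of the 6 nearby regions with the smallest adjusted p against NCA that are not at another gene's end (points), with mean and SD of 3 libraries as a dash and bar, y axes from 0, and the distance of each region from the nearest end of its gene. The ZEB1 and SIX4 regions are high under ASO2, the WWTR1 region is high under both ASOs, and the ID1 region is low under both.

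Upstream of ID1 the called regions moved in opposite directions, and both were closer to another gene, HM13. The region chr20:31570783-31571093, 34.4 kb from ID1 and 1.40 kb from an end of HM13, had 12.4, 9.71 and 10.9 CPM in NCA, 3.23, 7.83 and 5.6 CPM under ASO2 and 7.86, 5.58 and 6.38 CPM under ASO10. All 6 ASO libraries were below NCA (average -0.84 ± 0.19, edgeR adjusted p = 0.00122, kept in all 17 alternatives, with adjusted p up to 0.0480). The fall under ASO2 alone had a log2 fold change of -0.96 ± 0.23 (edgeR adjusted p = 0.00117) and was lost without ASO2 replicate 1 (adjusted p = 0.0766). The region chr20:31572558-31573584 rose under ASO10 from 37.3 ± 3 to 53.3 ± 2.28 CPM (0.51 ± 0.12, edgeR adjusted p = 0.00497). That call was lost without NCA replicate 2 or ASO10 replicate 3 (adjusted p up to 0.0948).

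The remaining called regions had smaller or less stable differences. Under ASO2, a region inside TGFBR2 rose from 1.17 ± 0.585 to 3.33 ± 0.778 CPM (edgeR adjusted p = 0.0406) and one beyond IFI16 fell from 3.78 ± 1.75 to 1.49 ± 0.464 CPM (edgeR adjusted p = 0.0367). The former was called in 11 of 17 alternatives and lost without NCA replicate 1 or 3, ASO2 replicate 2 or 3 or ASO10 replicate 1 (adjusted p up to 0.261), and the latter in 12 of 17 and lost without NCA replicate 2 or ASO2 replicate 1 or 2 (up to 0.433). For the average of both ASOs, a region 39.8 kb upstream of SMAD3 rose from 6.64 ± 0.647 CPM to 10.2 ± 2.46 under ASO2 and 10.5 ± 1.19 under ASO10 (edgeR adjusted p = 0.0369, 8 of 17 alternatives, lost without any NCA library, ASO2 replicate 1 or ASO10 replicate 2 or 3, up to 0.223). A region 28.7 kb upstream of ZFP36L1 fell from 8.52 ± 2.07 to 5.79 ± 1.31 and 4.91 ± 1.21 CPM (edgeR adjusted p = 0.0474, 7 of 17 alternatives, lost without NCA replicate 1 or 3, ASO2 replicate 2 or any ASO10 library, up to 0.451). Of the 19 regions, 3 lay within 1 kb of an end of another gene. The one at SCAF1, near IRF3, rose under ASO10 (edgeR adjusted p = 0.0254) but not without NCA replicate 1 or 3 or any ASO10 library (up to 0.360). One at POLM, near AEBP1, fell under ASO10 (edgeR adjusted p = 0.0129) but not without NCA replicate 1 or 2 or ASO10 replicate 1 or 2 (up to 0.349). Its ASO10 libraries overlapped with NCA. The other at POLM differed between ASO2 and ASO10 (-0.50 ± 0.12, edgeR adjusted p = 0.00196). Regions beyond YAP1, beyond IRF2 and inside SMAD3 were higher under ASO2 than under ASO10, with 13.3 ± 0.784 against 8.69 ± 1.05 CPM, 17.7 ± 3.93 against 12 ± 3.94 CPM, and 6.83 ± 0.654 against 3.41 ± 1.55 CPM (edgeR adjusted p = 0.0485, 0.0329 and 0.0282, each lost when 1 of several libraries was left out, up to 0.215, 0.406 and 0.285). At the IRF2 region the ASO2 and ASO10 libraries overlapped.

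Summed over the members, the groups overlapped. The summed level over the 26 gene-end regions was 380, 363 and 387 CPM in NCA, 389, 410 and 362 CPM under ASO2, and 415, 376 and 397 CPM under ASO10. The median log2 fold change of the 25 tested regions was 0.023 under ASO2, -0.009 under ASO10, -0.003 for both and 0.018 between ASO2 and ASO10. Over all tested regions these medians were -0.024, -0.007, -0.011 and -0.002, and over the gene-end regions of all protein-coding genes -0.053, 0.086, 0.015 and -0.147. Per library, the median difference of the members from the NCA mean ran from -0.021 to 0.071 in NCA, -0.065 to 0.053 under ASO2 and -0.165 to 0.169 under ASO10. For the 277 nearby regions the medians were -0.074 under ASO2, -0.014 under ASO10 and -0.046 between the ASOs.

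**Figure D5:**
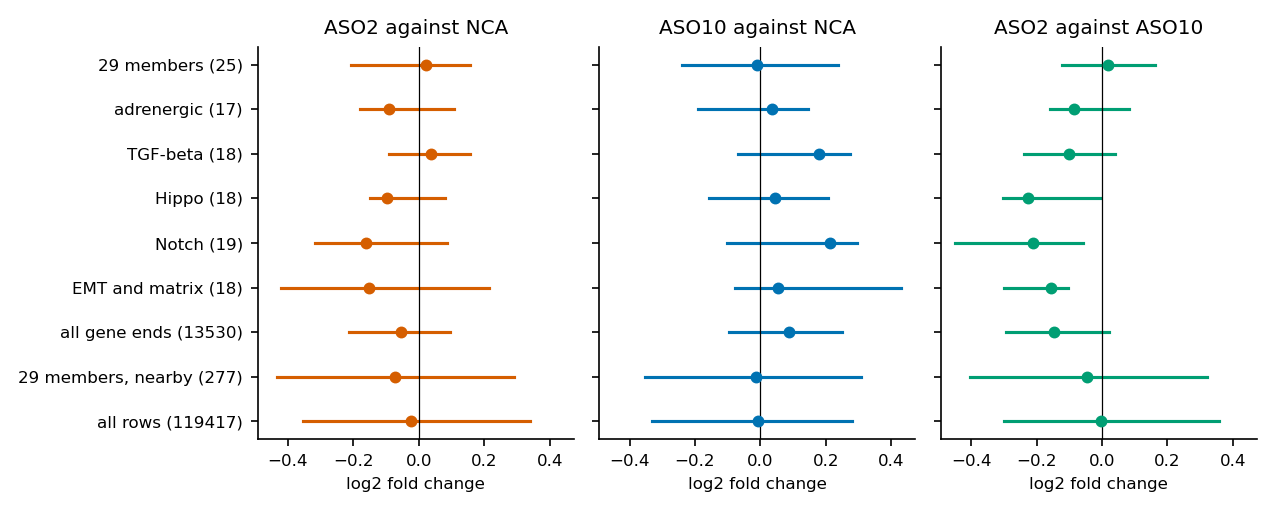
Median (point) and interquartile range (line) of the log2 fold change of tested regions in 3 comparisons, for the 29 members and other gene lists, with the number of regions in brackets. The labels without "nearby" or "all rows" are gene-end regions, and the medians of the members' gene-end regions lie between -0.009 and 0.023.

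Other genes of the same pathways were examined at their gene ends. Of 18 tested TGF-beta gene-end regions and of 19 Notch regions, 0 were called in any of the 4 comparisons. For these 2 lists, 1 and 1 regions had an unadjusted p under 0.05 under ASO2, 4 and 4 under ASO10, and 5 and 3 between ASO2 and ASO10. Over the 13530 tested gene-end regions of all protein-coding genes the numbers were 1408, 2342 and 2705, which are the like comparison for these lists. Over all tested regions, most of them not at gene ends, the shares were 16.5%, 10.6% and 14.6%. The share at gene ends was below these under ASO2 and above them under ASO10 and between the ASOs. Of 18 Hippo regions, 1 was lower under ASO2, that of CCN2, a secreted matrix protein gene induced by YAP1 and TAZ (-0.73 ± 0.22 SE, edgeR adjusted p = 0.0263). Of 18 regions of epithelial-mesenchymal and matrix genes, 1 was lower under ASO2, that of the integrin subunit ITGB1 (-0.43 ± 0.14, edgeR adjusted p = 0.0417). Of 17 adrenergic regions, 1 was higher under ASO10, that of the T-box factor TBX2 (0.48 ± 0.14, edgeR adjusted p = 0.0456). CCN2, ITGB1 and TBX2 were named after their values were seen. At gene ends of all genes 1.54% were called under ASO2 and 2.14% under ASO10, and 1 call in a list of 17 or 18 is too few to read against these shares. Median log2 fold changes between ASO2 and ASO10 were -0.101 for the TGF-beta list, -0.227 for Hippo, -0.21 for Notch, -0.156 for epithelial-mesenchymal and matrix genes and -0.086 for adrenergic genes, against -0.147 over all gene ends.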

How the data were processed

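Counts per region, whole numbers without normalization as the values show, were deposited in 1 table that covers the 9 ATAC-seq libraries over a shared set of regions. The submitters' processing notes name Bowtie2 2.2.6, MACS2 2.1.2, SAMtools, FastQC and DESeq2 1.42.0 and the build GRCh38 (hg38), without roles. Filters, the Tn5 shift and whether reads or cut sites were counted are not given in the sources used here. Coordinates are those of the table's row names, and whether their starts count from 0 or 1 is not stated.

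Regions were filtered with filterByExpr (119417 left), scaled by TMM and tested with edgeR 4.0.16 (R 4.3.3; robust quasi-likelihood fit, 1 term per group, all 9 libraries). Benjamini-Hochberg adjustment ran over all tested regions at 0.05. The fit was tested on simulated data. Genes, promoters and strands came from RefSeq tables (GRCh38.p14), which name all 29 members and give strand for 20. DNA copy number was not corrected for. No replicate was a copy of another of its group: chi-square divided by its degrees of freedom ran from 2.93 to 3.65 over the 9 pairs within groups. Libraries of different groups were not compared in this way.

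All gene-end regions were described. Values per library are given for called ones and the 3 smallest p per comparison, and nearby regions were named when called, at most 5 in each direction by p, with the rest given more briefly. The members and lists were chosen with earlier results of these data known. Alternatives were DESeq2, limma-voom 3.58.1, RLE factors, total counts, loess offsets, other filters, a replicate block, only the groups compared, other windows and leaving out each library. Python 3.11.15, pandas 2.3.3 and matplotlib 3.10.9 made tables and figures. Some marker genes are not reported here.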

Additional observations from a re-analysis of the deposited data

Results flagged for a closer look

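The effects of ASO2 and ASO10 on the same locus differed in the direct test in 8 regions of the members, and this difference between groups is why they are listed. They were 1 of 25 tested gene-end regions and 7 of 277 tested nearby regions (2.53%). The shares were 3.23% of all tested regions and 3.31% of the gene-end regions of all protein-coding genes, so the number does not set the members apart. The log2 fold change of ASO2 over ASO10 was -0.72 at the YAP1 gene start and 0.61 at the region 35.3 kb from YAP1. It was 1.52 at the farther SIX4 region, 0.94 and 0.73 at the ZEB1 regions, 0.99 at the region inside SMAD3, 0.55 at the region 43.8 kb from IRF2 and -0.50 at a region at the end of POLM near AEBP1. The SIX4 and POLM calls held in all 18 alternatives run for each, and the others in 5 to 13 of 18.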

How the results depend on the processing

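Of 272 pairs of a count or median with an alternative, 212 stayed within 1.5 times (counts) or 1 SD between libraries (medians). Of 563 pairs of a called region with an alternative, 420 kept the call, 143 lost it and 0 reversed, and 8 of 32 calls held in every alternative run for them. The cause was not tested. Gene-end calls under ASO2 (1) came to 0 with an absolute log2 fold change over 1 and 0 to 1 when 1 library was left out. Those under ASO10 (1) came to 0 with total counts, no filter, limma-voom and a 500 base window, 0 with DESeq2, which gave no adjusted p for AEBP1, and 0 to 1 with a library left out. Those between ASO2 and ASO10 (1) came to 0 with DESeq2, limma-voom and the fold limit, and 0 to 1 with a library left out. Nearby calls within 20 kb and within 100 kb, in place of 50 kb, were 5 and 18 under ASO2 (9), 2 and 9 under ASO10 (4), 3 and 15 for the average (9), and 3 and 12 between the ASOs (7). Under ASO10 they came to 8 with at least 10 counts in every library, 0 with the fold limit, 2 without regions at another gene's end and 1 to 4 with a library left out. For the average they came to 5 with limma-voom, 1 with the fold limit and 4 to 8 with a library left out, and between the ASOs to 3 with loess offsets, 2 with DESeq2, 1 with the fold limit and 2 to 7 with a library left out. The median at gene ends under ASO10 (-0.009) was -0.125 with the 500 base window. Open nearby regions (168) were 264 at 5 counts, 78 at 30 counts, 96 within 20 kb and 279 within 100 kb. Regions under 10 counts per library could not be called open.

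Replicate numbers did not pair the libraries: the correlations of same-numbered libraries ran from -0.036 to 0.013, and 0 of 9 libraries correlated best with their own number. With a replicate block, gene-end calls were 1 under ASO2, 0 under ASO10 and 1 between the ASOs, and nearby calls were 8, 3 and 6.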
